A study of Mus musculus with 16 samples.

Results

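The guanylate-binding protein genes Gbp2, Gbp3, Gbp4, Gbp5, Gbp6, Gbp7, Gbp8 and Gbp9 were followed through the RNA of mouse tumour lines with and without the DNA repair gene Trp53bp1, which encodes 53BP1. The genes were taken by their symbols, and all 8 were found among the 18635 genes listed in the data. Guanylate-binding proteins are large GTPases of the dynamin superfamily, and their genes are among the most strongly induced targets of interferon-gamma. The proteins assemble on the vacuoles of intracellular parasites and on cytosolic bacteria, and they help inflammasomes to form. In tumours the genes can be expressed by cancer cells and by leukocytes and other host cells that meet interferon. In the mouse the family lies in 2 clusters, with Gbp2, Gbp3, Gbp5 and Gbp7 on chromosome 3 and Gbp4, Gbp6, Gbp8 and Gbp9 on chromosome 5.

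Total RNA of 16 samples was sequenced. The groups were 3 libraries of ID8 with a Trp53bp1 knockout (KO), 3 of ID8 with the wild-type gene (WT), 5 of KPC with the knockout and 5 of KPC with the wild-type gene. KPC is a pancreatic cancer line of the mouse, and ID8 derives from mouse ovarian surface epithelium. The labels describe all samples as tumours that grew after the lines had been implanted in syngeneic mice, with no other treatment, and the extraction protocol speaks of RNA from cells. The strain and age of the mice, the deleted part of Trp53bp1 and the number of clones are not given in the sources used here. Each genotype is 1 line in the labels, so the knockout and a difference between the lines compared cannot be told apart. Replicates are labelled as biological. By the labels the knockout was made in the lines, not in the host mice.

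Libraries held 18963859 to 19072437 counts in ID8 KO, 19450799 to 19727536 in ID8 WT, 18452327 to 19170258 in KPC KO and 17902867 to 19302932 in KPC WT. Levels are given in CPM, counts scaled to the size of the library. A floor of 3 counts lay at 0.1501 to 0.1652 CPM and covers counting error only. Trp53bp1 itself averaged 18.9 ± 0.502 CPM in ID8 KO and 47.4 ± 2.78 CPM in ID8 WT (SD, n = 3 each), and 33.8 ± 3.79 CPM in KPC KO and 50.2 ± 2.93 CPM in KPC WT (SD, n = 5 each), with no overlap in either line. ID8 libraries, although labelled as tumours, lacked several defining host cell markers. Ptprc of leukocytes, Cdh5 of endothelium, Cd3e of T cells and Adgre1 of macrophages had 0 counts in all 6, which allows up to 0.162 CPM in any of them. KPC libraries held these transcripts. The ovarian surface marker Wt1 averaged 757 CPM in ID8 KO and 623 CPM in ID8 WT, against 1.09 CPM in KPC KO and 0.246 CPM in KPC WT. In such bulk samples, fewer cells of a type and less RNA per cell cannot be told apart.

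The promoters of the genes whose values are described next are shown to let a reader see the interferon-response letters near their start sites. RefSeq promoter windows, from 250 bases before to 50 after a start site, were matched by symbol for 4 of the 8 genes, as 5 windows. Windows of build GRCm38.p6, plus strand, are printed 5′ to 3′, with capitals marking 2 motifs searched on both strands. One is the core of the interferon-stimulated response element (ISRE), GAAANNGAAA, known to be bound by interferon regulatory factors. The other is the gamma-activated site (GAS), TTCNNNGAA, known from genes that answer to interferon-gamma. Of the 4 sequences shown, the windows are chr3:142620413-142620712 for Gbp2, chr3:142559794-142560093 for Gbp3, chr3:142496684-142496983 for Gbp5 and chr3:142530086-142530385 for Gbp7.
Gbp2: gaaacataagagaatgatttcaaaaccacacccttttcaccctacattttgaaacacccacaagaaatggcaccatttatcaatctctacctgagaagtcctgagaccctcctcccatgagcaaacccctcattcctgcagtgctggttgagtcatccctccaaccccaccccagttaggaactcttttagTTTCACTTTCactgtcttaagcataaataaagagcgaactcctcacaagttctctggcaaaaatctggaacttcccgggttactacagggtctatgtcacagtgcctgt
Gbp3: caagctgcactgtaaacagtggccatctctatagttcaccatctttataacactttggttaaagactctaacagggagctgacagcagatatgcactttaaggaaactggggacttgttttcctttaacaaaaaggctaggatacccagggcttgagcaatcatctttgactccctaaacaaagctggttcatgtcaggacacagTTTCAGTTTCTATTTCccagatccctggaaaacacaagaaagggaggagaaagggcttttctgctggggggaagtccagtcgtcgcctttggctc
Gbp5: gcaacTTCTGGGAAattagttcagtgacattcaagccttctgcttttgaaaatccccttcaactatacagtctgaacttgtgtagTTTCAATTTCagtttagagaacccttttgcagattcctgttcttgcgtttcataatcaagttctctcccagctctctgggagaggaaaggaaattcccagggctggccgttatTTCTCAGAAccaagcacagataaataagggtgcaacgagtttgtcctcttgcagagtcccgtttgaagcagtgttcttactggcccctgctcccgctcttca
Gbp7: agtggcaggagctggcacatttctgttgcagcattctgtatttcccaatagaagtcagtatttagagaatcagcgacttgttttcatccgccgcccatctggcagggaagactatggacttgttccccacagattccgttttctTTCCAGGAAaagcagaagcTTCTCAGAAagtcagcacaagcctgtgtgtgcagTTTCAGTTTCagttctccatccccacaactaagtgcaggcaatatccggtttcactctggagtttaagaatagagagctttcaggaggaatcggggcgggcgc
The ISRE core was found in all 4 of these windows, and in 3.44% of 32851 promoter windows of the same length. It stood as 1 match in Gbp2, Gbp5 and Gbp7 and as 2 overlapping matches in Gbp3, all on the minus strand. In Gbp2, Gbp3 and Gbp7 it lay between positions 192 and 221 of the window, close before the start site, and in Gbp5 farther upstream, at positions 86 to 95. The GAS letters were found in Gbp5 (positions 6 to 14 and 199 to 207) and Gbp7 (positions 145 to 153 and 164 to 172), and in 8.3% of all windows. No ISRE core overlapped a GAS match. A second Gbp3 window, chr3:142560106-142560405, held neither motif. Both motifs stood together in 0.454% of all windows. These matches are letters in a window and were not tested as binding sites. Gbp4, Gbp6, Gbp8 and Gbp9 had no entry.

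In ID8, all 8 guanylate-binding protein genes rose with the knockout, and in none did the groups overlap. The increase was 14.7-fold for Gbp5, 11.4-fold for Gbp4 and between 3.19-fold and 6.88-fold for the other 6 genes. In the same edgeR quasi-likelihood fit, 25.4% of the 11933 genes tested were called higher, at a Benjamini-Hochberg adjusted p of 0.05. Every KO library lay above every WT library for 28.7% of the genes tested. The median log2 fold change was 2.42 over the 8 genes and 0.01 over all genes.

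Among the chromosome 3 genes, Gbp2, whose prenylated protein coats parasite vacuoles in mouse cells, had 184, 204 and 178 CPM in the ID8 KO libraries and 40.7, 38.5 and 42.1 CPM in the ID8 WT libraries. The KO libraries all lay far above the WT libraries, with little spread within either group. The fitted change of Gbp2 was 2.23 log2 units (SE 0.0604, adjusted p = 5.85e-14 by edgeR). Gbp3, of the same cluster, had 40.1, 34.7 and 32.3 CPM in ID8 KO and 6.20, 7.67 and 6.66 CPM in ID8 WT. KO replicate 1 was the highest, and the lowest KO library was still well above the highest WT library. On the log2 scale Gbp3 changed by 2.39 (SE 0.101, edgeR adjusted p = 1.65e-11).

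Gbp5, whose protein promotes assembly of the NLRP3 inflammasome in mouse macrophages, had 7.55, 8.57 and 7.06 CPM in ID8 KO and 0.485, 0.702 and 0.379 CPM in ID8 WT. It was nearly silent in the WT libraries, a few counts above the floor, and present in every KO library. For Gbp5, edgeR estimated a log2 change of 3.88 (SE 0.201, adjusted p = 1.62e-10). Gbp7, linked to oxidative and autophagic killing of bacteria in mouse macrophages, had 11.8, 10.6 and 10.6 CPM in ID8 KO and 3.12, 3.40 and 2.65 CPM in ID8 WT. Its groups were separate as well, at a smaller fold. Its log2 estimate was 1.85 (SE 0.121, edgeR adjusted p = 2.84e-09).

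Among the chromosome 5 genes, Gbp4 had 11.6, 14.3 and 12.4 CPM in ID8 KO and 1.24, 0.972 and 1.14 CPM in ID8 WT. It was close to 1 CPM in WT and above 10 CPM in each KO library. The fitted change of Gbp4 was 3.51 log2 units (SE 0.152, adjusted p = 1.68e-11 by edgeR). Gbp9 had 29.4, 32.4 and 29.1 CPM in ID8 KO and 4.58, 4.00 and 4.66 CPM in ID8 WT, with no overlap and a log2 fold change of 2.78 (SE 0.0932, edgeR adjusted p = 7.76e-13). Its increase was larger than that of Gbp6 or Gbp8.

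Gbp6 had 22.0, 23.1 and 21.0 CPM in ID8 KO and 3.83, 4.37 and 3.90 CPM in ID8 WT. Its level is the least certain of the 8, because its reads can be shared with a neighbouring copy. On the log2 scale Gbp6 changed by 2.45 (SE 0.0970, edgeR adjusted p = 5.25e-12). Gbp8 had 5.35, 5.36 and 4.95 CPM in ID8 KO and 1.72, 1.78 and 1.41 CPM in ID8 WT, the smallest increase of the family in this line. For Gbp8, edgeR estimated a log2 change of 1.67 (SE 0.157, adjusted p = 2.04e-07).

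The call in ID8 held with each library left out in turn, at 8 of 8 genes each time. In a joint fit of the 4 groups, in which ID8 shared its estimate of the spread with KPC, 5 of the 8 were called. The others were Gbp2, Gbp6 and Gbp7, at adjusted p of 0.073, 0.0571 and 0.0677 by edgeR. Several marker sums moved with the genotype in ID8, without overlap of the groups. By edgeR, 25.4% of all genes were called higher in this line and 25.5% lower. The epithelial sum was 2854 to 2943 CPM in ID8 KO and 3698 to 4024 CPM in ID8 WT, with Krt8, Krt18, Krt19 and Epcam, 4 of 5, called lower. The ovarian surface and mesothelial sum was 4652 to 4978 CPM in ID8 KO and 3253 to 3589 CPM in ID8 WT. Its 5 genes were split, with 2 called higher, 2 called lower and a median log2 change of -0.06. The pancreatic ductal sum was 1269 to 1348 CPM in ID8 KO and 1512 to 1669 CPM in ID8 WT, with 3 of 5 genes tested called lower. Most of this sum was Krt19, which is also in the epithelial list, at 1244 to 1324 CPM in ID8 KO and 1478 to 1636 CPM in ID8 WT. Fibroblast markers summed to 119.8 to 141 CPM in ID8 KO and 197 to 256 CPM in ID8 WT, with 1 of 8 at 0. Of the 3 fibroblast markers tested, 1 was called lower and 2 had positive fitted changes. Sums of macrophage markers were 10.4 to 12.1 CPM in ID8 KO and 17.9 to 20.3 CPM in ID8 WT (5 of 10 at 0), and those of endothelial markers 4.53 to 4.94 CPM in ID8 KO and 6.91 to 7.70 CPM in ID8 WT (2 of 8 at 0). Of the 2 macrophage markers tested, 1 was called lower, and of the 4 endothelial markers tested, 3 were called lower and 1 higher. Skeletal muscle markers summed to 6.82 to 8.59 CPM in ID8 KO and 23.4 to 26.9 CPM in ID8 WT, with 1 of 2 tested called lower. The part of these differences in the guanylate-binding protein result was not tested. The leukocyte markers summed to 0.210 to 0.368 CPM in ID8 KO and 0.162 to 0.216 CPM in ID8 WT, with 3 of 6 at 0. Those of T and NK cells summed to 0.210 to 0.368 CPM in ID8 KO and 0 to 0.162 CPM in ID8 WT, with 8 of 10 at 0 in each group.

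**Figure D1:**
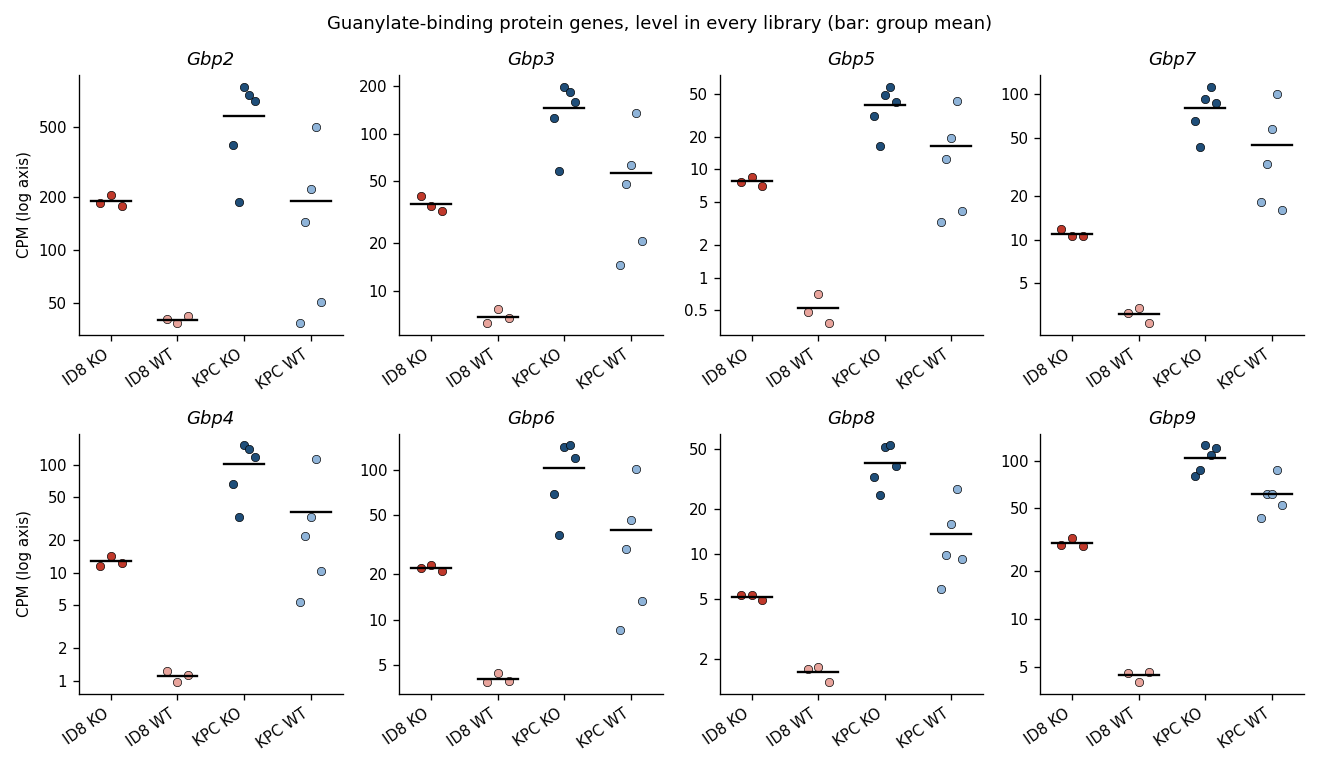
Level of each guanylate-binding protein gene in every library, in CPM on a log axis, with 1 point per library and a bar at the group mean (ID8 KO and WT, n = 3 each; KPC KO and WT, n = 5 each). The ID8 KO points all lie above the ID8 WT points for all 8 genes, while the KPC groups overlap for all 8.

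In KPC, the same 8 genes averaged 1.70 to 3.03 times as high in KO as in WT, and in the edgeR fit of KPC alone only Gbp8 and Gbp9 passed the test. By limma-voom with quality weights, which called 11.4% of all genes higher, all 8 passed, with larger estimates such as a log2 change of 2.59 for Gbp4 (adjusted p = 0.0342) and 2.50 for Gbp2 (adjusted p = 0.0305). The groups overlapped for all 8 genes. In this line 6.67% of the 14283 genes tested were called higher, and every KO library lay above every WT library for 5.76% of them, against 0 of 8 guanylate-binding protein genes. The median log2 fold change was 1.36 over the 8 genes and -0.01 over all genes. The biological coefficient of variation was 25.1% in KPC and 5.08% in ID8, so a change of a given size had a larger error in KPC.

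Gbp8 had 32.9, 24.9, 51.5, 53.1 and 39.0 CPM in the KPC KO libraries and 5.87, 9.95, 16.0, 27.2 and 9.25 CPM in the KPC WT libraries. KO libraries were above every WT library in 4 of 5 cases, the exception being KO replicate 2, which was just below WT replicate 4. Its log2 estimate was 1.55 (SE 0.381, edgeR adjusted p = 0.0276). Gbp9 had 79.4, 87.2, 125, 109 and 119 CPM in KPC KO and 43.2, 61.8, 61.6, 86.9 and 52.5 CPM in KPC WT. Here too 4 of 5 KO libraries exceeded every WT library, and KO replicate 1 was below WT replicate 4. Its log2 fold change of 0.75 was the smallest of the family, with the smallest error (SE 0.183, edgeR adjusted p = 0.0267).

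The other 6 genes had fitted changes in the same direction that did not pass, which does not show that they did not differ. Gbp2 had 395, 187, 841, 757 and 694 CPM in KPC KO and 38.6, 144, 221, 495 and 50.9 CPM in KPC WT. KO replicates 3, 4 and 5 were above every WT library, while KO replicates 1 and 2 were below WT replicate 4. The fitted change of Gbp2 was 1.59 log2 units (SE 0.705, adjusted p = 0.153 by edgeR). Gbp3 had 125, 57.9, 199.6, 185 and 159.9 CPM in KPC KO and 14.6, 48.2, 63.4, 136 and 20.7 CPM in KPC WT. Its libraries stood in the same relation, with KO replicates 3, 4 and 5 on top. On the log2 scale the estimate for Gbp3 was 1.36 (SE 0.584, edgeR adjusted p = 0.142).

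Gbp5 had 31.2, 16.3, 48.5, 57.9 and 41.5 CPM in KPC KO and 3.24, 12.5, 19.4, 42.9 and 4.12 CPM in KPC WT. Only KO replicates 3 and 4 exceeded every WT library. For Gbp5, edgeR estimated a log2 change of 1.24 (SE 0.658, adjusted p = 0.219). Gbp7 had 65.3, 43.0, 92.2, 113 and 87.4 CPM in KPC KO and 18.1, 33.0, 57.4, 99.99 and 16.0 CPM in KPC WT. Its groups overlapped most, with KO replicate 4 alone above WT replicate 4. Its log2 estimate was 0.83 (SE 0.495, edgeR adjusted p = 0.271).

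Gbp4 had 66.1, 33.1, 151, 139.9 and 118 CPM in KPC KO and 5.31, 21.9, 32.7, 112 and 10.4 CPM in KPC WT. In WT its highest library was 21.1 times its lowest, the widest range of the 8 genes, and 4 of 5 WT libraries were below every KO library. The fitted change of Gbp4 was 1.48 log2 units (SE 0.776, adjusted p = 0.217 by edgeR). Gbp6 had 68.9, 36.6, 142, 145 and 119.6 CPM in KPC KO and 8.55, 29.4, 46.3, 102 and 13.4 CPM in KPC WT. KO replicates 3, 4 and 5 again lay above every WT library. On the log2 scale the estimate for Gbp6 was 1.35 (SE 0.656, edgeR adjusted p = 0.185).

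The count of called genes in KPC depended on single libraries. Without WT replicate 4 it was 7, all but Gbp7, and log2 changes were then 2.50 for Gbp4, 2.30 for Gbp2, 2.04 for Gbp6, 1.96 for Gbp5 and 1.95 for Gbp3, each over 1.5 times the fold with that library. It was 0 without WT replicate 2, WT replicate 5, KO replicate 3, KO replicate 4 or KO replicate 5. It was 1, Gbp8, without WT replicate 1 or WT replicate 3, and 2 without KO replicate 1 or KO replicate 2. In each of the fits that called 0, 2 of the 8 had an unadjusted edgeR p under 0.05. The number of calls over all genes moved as well. It was 1953 with all libraries and 3106 without WT replicate 4. It was 952 to 1195 in the fits that called 0 of the 8, and 934 to 1859 in those that called 1 or 2.

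**Figure D2:**
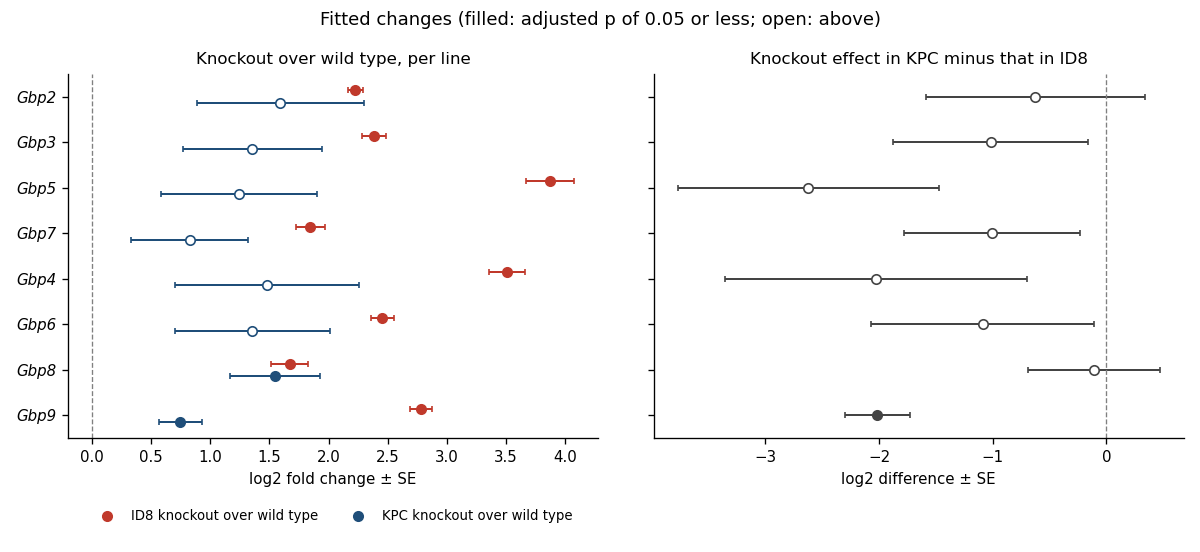
Fitted log2 fold change of KO over WT in each line (left) and the difference between the effects, KPC minus ID8 (right), for each gene, with bars of 1 standard error and filled points for an edgeR adjusted p of 0.05 or less. All 8 points are filled for ID8, Gbp8 and Gbp9 alone are filled for KPC, and Gbp9 alone is filled on the right.

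The 8 genes varied together from library to library in KPC. WT replicate 4 was the highest WT library for all 8 genes. WT replicate 1 was the lowest for 7 of them, and WT replicate 5 for Gbp7. In KO, replicate 2 was the lowest for 7 genes and replicate 1 for Gbp9, while the highest was replicate 3 or replicate 4 for each gene. Within KPC WT, the highest library stood between 2.01 times (Gbp9) and 21.1 times (Gbp4) above the lowest. Within KPC KO this range was 1.57 times for Gbp9 and 4.56 times for Gbp4. In ID8 it was at most 1.24 times in KO and 1.85 times in WT.

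**Figure D3:**
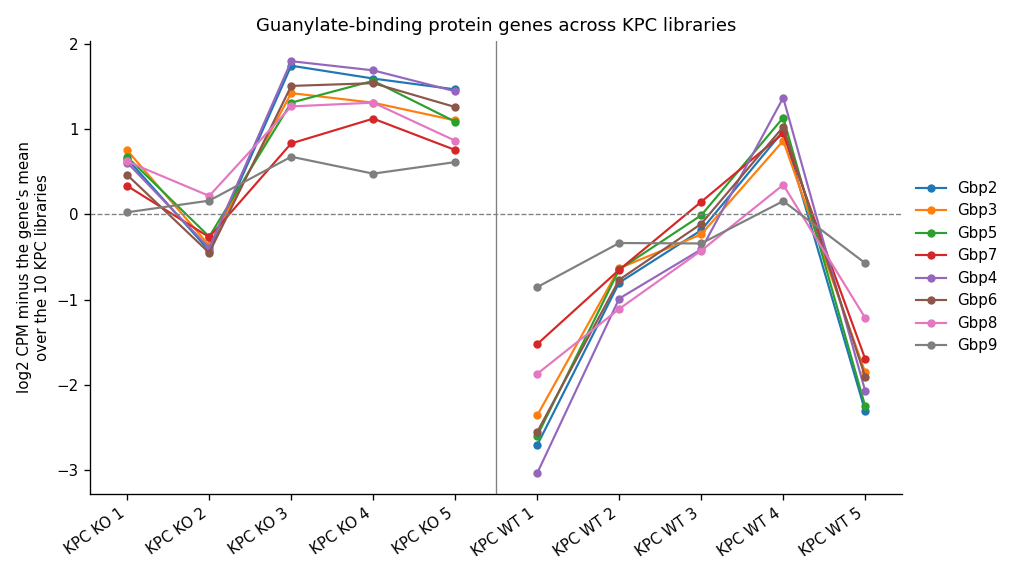
Each gene's log2 CPM in the 10 KPC libraries, less its own mean over them, with KO libraries left and WT libraries right of the line and 1 coloured line per gene. Gbp9 has the flattest line, and all 8 genes peak among WT libraries in replicate 4.

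The family total, the summed CPM of the 8 genes, was 312, 333 and 295 in ID8 KO and 61.9, 61.3 and 62.9 in ID8 WT. In KPC it was 864, 486, 1650.0, 1559 and 1378 in KO and 137, 361, 518, 1101 and 177 in WT. The mean totals stood at a ratio of 5.05 in ID8 and 2.59 in KPC, the second being 3.98 without KPC WT replicate 4. The ratio was 4.78 in ID8 and 2.73 in KPC for the chromosome 3 genes (4.39 in KPC without that library). For the chromosome 5 genes it was 6.28 in ID8 and 2.30 in KPC (3.25 in KPC without that library).

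Markers of some host cells had positive fitted changes in KPC, but few were called and the summed levels of the groups overlapped. By edgeR, 6.67% of all genes were called higher in this line and 7.01% lower. The 6 leukocyte markers summed to 1519, 703, 836, 1271 and 888 CPM in KPC KO and 400.4, 402, 584, 904 and 321 CPM in KPC WT. All 6 had positive fitted changes and 1, Cd52, was called. The 10 T and NK cell markers summed to 141, 75.6, 87.8, 116 and 90.3 CPM in KPC KO and 13.8, 30.2, 43.8, 114 and 15.2 CPM in KPC WT, again with all 10 positive and 1, Zap70, called. WT replicate 4, the WT library with the most guanylate-binding protein transcript, was also the WT library with the highest sum for both lists. KO replicate 1 had the highest sums of all KPC libraries for both lists but the second lowest family total of the 5 KO libraries. Macrophage markers summed to 3129 to 5227 CPM in KPC KO and 1888 to 4235 CPM in KPC WT. All 10 had positive fitted changes, but 0 were called. Fibroblast, endothelial and red blood cell markers differed less, with median log2 changes of 0.138, 0.145 and 0.125 and 0 called in each list.

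Skeletal muscle markers summed to 18.8 to 6007 CPM in KPC KO and 561 to 29940.0 CPM in KPC WT. All 10 had negative fitted changes, and 0 were called. Single libraries went both ways, and the relation of muscle sum and family total was not tested. KO replicate 3 had the highest family total, 1650.0 CPM, and the lowest muscle sum. KO replicate 2 had the lowest KO total, 486 CPM, with a muscle sum of 4251 CPM. KO replicate 5 had a total of 1378 CPM with the highest muscle sum in KO. WT replicate 4 had the highest WT total, 1101 CPM, with a muscle sum of 6758 CPM. Epithelial markers summed to 7852 to 9651 CPM in KPC KO and 4684 to 5828 CPM in KPC WT, with Krt8, Krt18, Krt19 and Epcam, 4 of the 5, called higher. Of the 7 pancreatic ductal markers, 2 were called higher and 1 lower. Ifng, the gene of interferon-gamma itself, had 15, 2, 17, 18 and 9 counts in KPC KO and 2, 3, 5, 9 and 1 counts in KPC WT. It had 0 counts in all 6 ID8 libraries. The parts of leukocytes, T cells, macrophages and epithelial cells in the KPC result were not tested. With a covariate for skeletal muscle transcripts, edgeR called 0 of the 8 genes in KPC, with 2 at an unadjusted p under 0.05. Of all 14283 genes tested, 377 were called with this covariate, against 1953 without it. Gbp8 then had a log2 fold change of 1.38 (edgeR adjusted p = 0.144) and Gbp9 one of 0.82 (edgeR adjusted p = 0.0955). The muscle gene Acta1 was above 1000 CPM in 4 KPC libraries, WT replicates 2 and 4 and KO replicates 2 and 5. Without them 4 of the 8 genes were called, namely Gbp3, Gbp4, Gbp8 and Gbp9, and 2020 of all 14315 genes tested. The log2 change was then 2.87 for Gbp4 and 2.67 for Gbp2, which did not pass (edgeR adjusted p = 0.0556). WT replicate 4 was the highest WT library for all 8 genes, and KO replicate 2 the lowest KO library for most. Muscle content and the levels of these libraries cannot be told apart here.

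**Figure D4:**
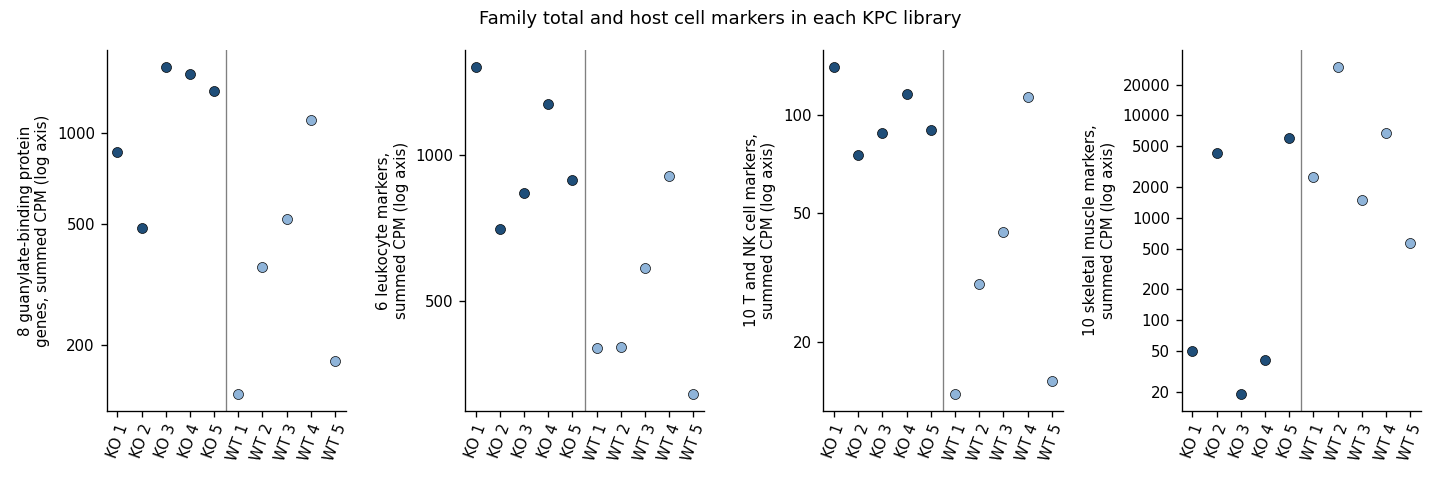
Summed CPM, on log axes, of the 8 guanylate-binding protein genes, 6 leukocyte markers, 10 T and NK cell markers and 10 skeletal muscle markers in each KPC library, with KO libraries left and WT libraries right of the line. WT replicate 4 has the highest WT sum in every panel but that of muscle, at 1101, 904 and 114 CPM, while KO replicate 1 leads the KO libraries in the leukocyte and T and NK cell panels only.

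The difference between the lines was tested itself. On the log2 scale the knockout effect on Gbp9 was smaller in KPC than in ID8, with a difference of -2.02 (KPC minus ID8, SE 0.287, edgeR interaction adjusted p = 0.000232). This call was kept under every alternative run. Of the 14921 genes in this fit, 10.3% were called more negative and 11.6% more positive in KPC. In CPM, mean Gbp9 was 4.41 in ID8 WT and 30.3 in ID8 KO, and 61.2 in KPC WT and 103.8 in KPC KO. The KPC libraries held host cell markers that the ID8 libraries lacked. Line and cell content therefore cannot be told apart in these differences. Gbp5 had a difference of -2.62 (SE 1.15, edgeR adjusted p = 0.124) and Gbp4 one of -2.03 (SE 1.33, edgeR adjusted p = 0.319). Neither passed, and by DESeq2 Gbp5 did, at an adjusted p of 0.0351, where DESeq2 called 12.6% of all genes more negative in KPC. Without KPC WT replicate 4 the differences were -1.88 for Gbp5 and -0.98 for Gbp4, and by limma-voom -1.75 for Gbp5 and -0.91 for Gbp4. For Gbp8 the difference was -0.11 (SE 0.578), so an interval of 1 standard error to either side spans 0. The other 4 genes had differences of -1.09 to -0.63 with adjusted p of 0.405 or more by edgeR. Of these, Gbp2 was at 0.11, Gbp3 at -0.40 and Gbp6 at -0.38 without KPC WT replicate 4.

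The lines also stood apart in WT, where no knockout enters, which was described and not tested. KPC WT averaged 4.70 times the ID8 WT level for Gbp2, 31.5 times for Gbp5 and 32.7 times for Gbp4, and between 8.25 and 14.7 times for the other 5 genes. Without KPC WT replicate 4 the ratios were 2.81 for Gbp2, 5.36 for Gbp3, 6.06 for Gbp6, 18.8 for Gbp5 and 15.7 for Gbp4. All 5 KPC WT libraries exceeded every ID8 WT library for 7 of the 8 genes, and 4 of 5 did for Gbp2. For Gbp7, Gbp8 and Gbp9, all 5 KPC WT libraries were also above every ID8 KO library. For Gbp2, 2 of 5 were. The ID8 libraries lacked the host markers named above, so cell content and line cannot be told apart here.

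Levels of different genes were compared per kilobase of transcript, in CPM per kb. Gbp2 was the most abundant in each group, at 75.0 ± 5.55 in ID8 KO, 16.1 ± 0.727 in ID8 WT (SD, n = 3 each), 228 ± 109 in KPC KO and 75.5 ± 73.9 in KPC WT (SD, n = 5 each). By group mean Gbp3 and Gbp6 came next in each group, and in every library Gbp2 exceeded Gbp3 and Gbp3 exceeded Gbp6. Below them by group mean came Gbp9. It was under Gbp6 in all 6 ID8 libraries, in 4 of 5 KPC KO libraries and in 2 of 5 KPC WT libraries. These neighbours were thus not separated in KPC. In KPC WT replicate 1, the lowest WT library for both, Gbp9 also exceeded Gbp3, at 9.86 against 5.43 CPM per kb. Further down, Gbp9 exceeded Gbp4 in 3 of 5 KPC KO libraries and 4 of 5 KPC WT libraries. Gbp8 exceeded Gbp5 in 3 of 5 KPC WT libraries, and Gbp4 exceeded Gbp7, below it by mean, in 1 of 5. In ID8 WT, Gbp4 exceeded Gbp5 in 2 of 3 libraries, and the other neighbours in ID8 kept their order in every library. At the low end stood Gbp7 in ID8 KO, at 1.96 CPM per kb, and Gbp5 in the other groups, at 0.171 in ID8 WT, 12.8 in KPC KO and 5.38 in KPC WT. Gbp4 ranked above Gbp5, Gbp8 and Gbp7 in ID8 KO, at 2.81 CPM per kb, but only above Gbp5 in ID8 WT, at 0.246 CPM per kb.

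Gbp2 supplied 60.2% ± 1.11 of the family total in ID8 KO and 65.1% ± 2.20 in ID8 WT (SD, n = 3 each). In KPC it supplied 46.8% ± 5.07 in KO and 36.9% ± 7.94 in WT (SD, n = 5 each). Gbp9 made up 9.67% ± 0.23 in ID8 KO and 7.11% ± 0.513 in ID8 WT (SD, n = 3 each), and 10.1% ± 4.49 in KPC KO and 19.6% ± 10.5 in KPC WT (SD, n = 5 each). In KPC the share of Gbp9 was highest where the family total was lowest, at 31.4% in WT replicate 1 and 29.7% in WT replicate 5.

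**Figure D5:**
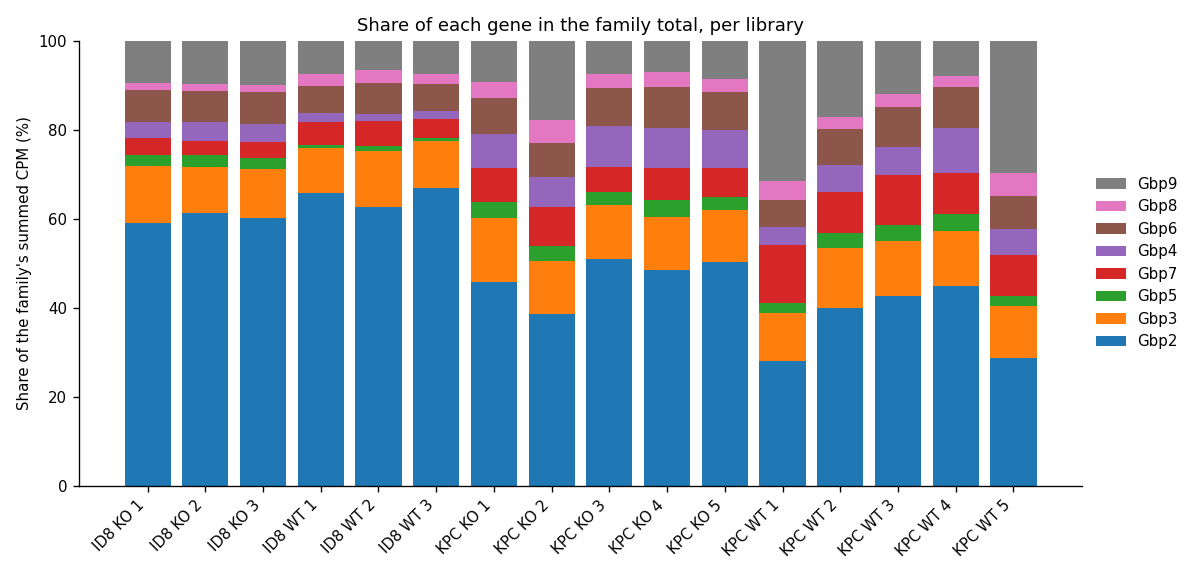
Share of each gene in the summed CPM of the 8 genes, in percent, with 1 stacked bar per library. Gbp2 holds the largest share in all libraries but KPC WT replicates 1 and 5, where Gbp9 is larger, at 31.4% and 29.7%.

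Family members resemble each other in sequence, and the counting tool can divide reads among near-identical genes. In the longest principal transcript of each gene, none of the stretches of 100 bases of Gbp2 or Gbp5 was shared with another listed gene. The share was 0.435% for Gbp7, 0.929% for Gbp3, 1.85% for Gbp4, 2.01% for Gbp9, 3.81% for Gbp8 and 44.7% for Gbp6. Almost all of the Gbp6 overlap was with Gbp10, a neighbouring family member, of which 57.0% was shared. Counts that are not whole, a sign that reads were divided, occurred in 0 of 16 libraries for Gbp2 and Gbp5, in 3 for Gbp3 and Gbp7, in 8 for Gbp4, 9 for Gbp9, 10 for Gbp8 and 13 for Gbp6. Of stretches of 50 bases, 2.07% of Gbp2, 0.898% of Gbp5 and 66.6% of Gbp6 were shared, so Gbp6 as a single gene is uncertain. Summed with Gbp10, it averaged 23.1 ± 0.942 CPM in ID8 KO and 4.03 ± 0.298 CPM in ID8 WT (SD, n = 3 each), a ratio of 5.72, and 109 ± 51.9 CPM in KPC KO and 41.8 ± 40.2 CPM in KPC WT (SD, n = 5 each), a ratio of 2.60.

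Genes related to the family were counted next, from lists of known function. Their counts in ID8 stand against 25.4% of all genes called higher and 25.5% called lower, and in KPC against 6.67% higher and 7.01% lower by edgeR. DESeq2 called 44% of all genes in ID8 and 22.1% in KPC, and limma-voom 21.9% in KPC. Of 4 other guanylate-binding protein and atlastin genes tested in ID8, 3 rose by edgeR and 2 were called by DESeq2, which called 20.9% of all genes higher. Gbp10 had 58 counts over the ID8 KO libraries and 0 over the ID8 WT libraries, at least 6.27-fold higher against a floor of 3 counts per library (edgeR adjusted p = 3e-06). That bound does not cover reads divided with Gbp6, with which Gbp10 shares most of its sequence. Its counts were not whole in 13 of 16 libraries, so Gbp10 as a single gene is uncertain too. The atlastin genes Atl3 and Atl1, which shape the endoplasmic reticulum, rose by 0.34 and 0.43 on the log2 scale. In KPC, 0 of 5 rose by edgeR and Atl3 fell, at -0.30 (edgeR adjusted p = 0.0482), with 2 of 5 at an unadjusted p under 0.05 and 2 called by DESeq2. Gbp2b had 0 counts in ID8 and averaged 5.44 ± 4.64 CPM in KPC KO and 1.24 ± 1.06 CPM in KPC WT (SD, n = 5 each, edgeR adjusted p = 0.103).

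Of the interferon ligands, receptors, kinases and transcription factors, 9 of 14 tested in ID8 rose and 2 fell, with a median log2 change of 0.29. Irf9, a DNA-binding factor of the interferon response, rose by 1.08, the receptor chain gene Ifngr2 by 0.53 and Irf1, a factor that drives guanylate-binding protein genes, by 0.40 on the log2 scale. The 2 that fell were Irf2 and Ifngr1. In KPC, 5 of 16 rose, with a median of 0.36. Irf1 averaged 254 ± 51.3 CPM in KPC KO and 127 ± 41.4 CPM in KPC WT (SD, n = 5 each), a log2 change of 0.99 (SE 0.212). The kinase gene Jak2 rose by 0.41, the myeloid factor Irf8 by 1.12 and Socs1, an inhibitor of the pathway, by 1.13 on the log2 scale. The remaining 1 was the kinase gene Tyk2.

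Immunity-related GTPases, which act with the guanylate-binding proteins on parasite vacuoles in the mouse, rose in 6 of 7 cases in ID8, with a median log2 change of 1.37. Igtp rose to 11.3 ± 0.301 CPM in ID8 KO, against 4.02 ± 0.550 CPM in ID8 WT (SD, n = 3 each). Irgm2 rose by 1.37, Irgm1 by 0.81 and Ifi47 by 0.76 on the log2 scale. In KPC, all 8 had positive fitted changes with a median of 1.22, but edgeR called 0. There, 5 had an unadjusted p under 0.05, DESeq2 called 2 and limma-voom called 7. Igtp averaged 179 ± 75.3 CPM in KPC KO and 64.7 ± 57.5 CPM in KPC WT (SD, n = 5 each).

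Inflammasome and pyroptosis genes, which act downstream of guanylate-binding proteins, were called in both directions in ID8. There 6 of the 9 were tested, with 3 higher and 2 lower. Casp4, the sensor of cytosolic lipopolysaccharide, averaged 27.7 ± 1.89 CPM in ID8 KO and 9.94 ± 0.787 CPM in ID8 WT (SD, n = 3 each). Zbp1, a sensor of Z-form nucleic acid, rose by 2.95 and the protease gene Casp1 by 0.67 on the log2 scale. Gsdmd, the pore former of pyroptosis, fell, with a log2 change of -0.51. Pycard, the adaptor ASC, had 0 counts in ID8 KO and 70 counts over the ID8 WT libraries, at least 7.99-fold lower in KO against a floor of 3 counts per library. In KPC, 3 of 9 rose, namely Gsdmd at 0.39, Casp4 at 0.80 and Pycard at 1.01 on the log2 scale.

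Of 15 other interferon-gamma targets, 8 were tested in ID8. Of these 5 rose and 1 fell, their log2 changes having a median of 0.35. The untested targets were not listed in the data or averaged at most 0.578 CPM in each ID8 group. Cxcl10, which encodes a chemokine, averaged 18.8 ± 0.748 CPM in ID8 KO and 1.91 ± 0.737 CPM in ID8 WT (SD, n = 3 each). Wars, a tRNA synthetase gene, rose by 0.38 and B2m, the light chain of MHC class I, by 0.42 on the log2 scale, and Cd274 and Tap2 rose as well, while the complement inhibitor Serping1 fell by 0.84. In KPC all 14 had positive fitted changes with a median of 0.94, and 2 passed by edgeR, with 5 at an unadjusted p under 0.05, while DESeq2 called 3 and limma-voom 9. These were Psmb10, an immunoproteasome subunit, at 1.27 (SE 0.260), and Cd274, the gene of PD-L1, at 1.43 (SE 0.397). The median over all genes was 0.01 in ID8 and -0.01 in KPC.

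The genes most like the family in each line were found by the mean absolute difference between centred log2 profiles, over the libraries of that line. Over 6 libraries of ID8, among 11075 genes, these were Il33 (0.04), Nfkbiz (0.07), Podxl (0.09), Sorcs1 (0.09) and Spon2 (0.12), against a median of 1.16 over all genes. The 8 members themselves lay between 0.03 for Gbp6 and 0.45 for Gbp8. With 3 libraries in each genotype, this likeness in ID8 is mostly a likeness in the size of the step between KO and WT. Over 10 libraries of KPC, among 13183 genes, Igtp (0.12), Batf2 (0.17), Tgtp2 (0.18) and Clec9a (0.20) were among the 5 closest, against a median of 1.001. Members lay between 0.10 for Gbp3 and 0.64 for Gbp9. Gbp2, Gbp4, Gbp7, Gbp8 and Gbp9 lay farther from the family mean in KPC than these 4 genes did. No gene was among the 5 in both lines.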

How the data were processed

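RNA of 16 samples was compared by genotype within each line, with groups and replicate numbers taken from the labels. HISAT and RSEM 1.2.8 were used with genome GRCm39 (mm39), as the submitters' processing notes record. Expected counts for each gene are what the authors deposited, and 7.92% to 8.96% of these in a table were not whole. They were rounded to whole numbers. Where a table did not list a gene, its count was set to 0. Replicates differed beyond sampling noise, with a chi-square of at least 4.36 per gene.

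The main test was the robust quasi-likelihood F test of edgeR 4.0.16, run in R 4.3.3 with limma 3.58.1, after filterByExpr and TMM scaling. P-values were adjusted by Benjamini-Hochberg over all genes tested, and 0.05 was the limit for a call. ID8 and KPC were fitted alone, and their difference as an interaction over all 16 libraries. All 8 genes passed the filter in both lines. The standard error is approximate, being the log2 fold change over the square root of F. Printed CPM are scaled by TMM over all 16 libraries. The procedure was tested on simulated data. Results were recomputed with DESeq2 1.42.0, limma-voom (quality weights), size factors from medians of ratios, no filter on low counts and a filter at 1 CPM. They were also recomputed with a replicate block, in a joint fit, with a covariate for muscle transcripts, without 4 libraries that had more than 1000 CPM of Acta1, and with each library left out. Ratios of mean levels with each library left out were added after the data had been seen.

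The members and gene lists were chosen with earlier results of these data known. Besides the 8 genes and Trp53bp1, up to 4 called genes per list and line were named by smallest p, and the 5 genes most like the family in each line, among genes whose mean log2 CPM reached 1, with 0.5 CPM added before the log. Tyk2, Irf2 and Ifngr1, Cd274 and Tap2 in ID8, and the called markers were chosen for naming once their values were known. The values of 1 gene that this rule names are not reported here. Transcript lengths and shared stretches come from the GENCODE annotation and the promoters from RefSeq, both on GRCm38, another build than that of the counts.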

Additional observations from a re-analysis of the deposited data

Results flagged for a closer look

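The level of Gbp4 in KPC WT had 1 library far from the others, replicate 4 at 112.0 CPM, where the other 4 lay between 5.31 and 32.7 CPM. Its gap to the nearest library, as a share of the range, was larger than Dixon's 95% limit for a group of 5 samples. The limit was applied to CPM, not to the log2 scale of the fits. Only groups of 5 can be examined this way here, and of the 16 examined (8 genes in KPC KO and KPC WT) this was the only such group. Chance gives about 1 in 20 groups where values are normally distributed, which was not checked for these CPM. The same library was the highest WT library for all 8 genes.

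The effect of the knockout on Gbp9 differed between the lines on the log2 scale, by -2.02 (KPC minus ID8, SE 0.287, edgeR interaction adjusted p = 0.000232). Line and cell content cannot be told apart in this difference. Gbp9 was higher in 3 of 3 ID8 KO libraries than in any ID8 WT library, and in 4 of 5 KPC KO libraries than in any KPC WT library.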

How the results depend on the processing

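In ID8, 8 of 8 genes were called in each alternative but the joint fit of the 4 groups, which called 5, and leaving out libraries gave 8 to 8. In KPC the 2 called genes became 8 with limma-voom with quality weights, 4 without the libraries with Acta1 above 1000 CPM and 0 with the muscle score, and leaving out libraries gave 0 to 7. For the difference between lines, the 1 call became 2 by DESeq2, and leaving out libraries gave 1 to 1. Every fitted change in ID8 and KPC was positive under every alternative run. In the difference between lines, where all 8 were negative, 2 uncalled genes were positive under limma-voom and without KPC WT replicate 4, and 1 with the replicate block and without KPC KO replicate 2. The causes were not tested.

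Replicate numbers do not pair the samples by the labels, and same-numbered KO and WT libraries had correlations of -0.14, 0.19 and -0.11 in ID8 and -0.15, 0.55, 0.18, 0.33 and -0.54 in KPC. With the replicate block the counts were 8 in ID8, 2 in KPC and 1 for the difference. Over all genes, 6067 were called in ID8, against 2681 in the joint fit. In KPC 1953 were called, against 3162 by DESeq2, 3134 by limma-voom and 3524 in the joint fit. The number was 377 with the muscle score, 2020 without the libraries with Acta1 above 1000 CPM and 934 to 3106 with a library left out. For the difference 3259 were called, against 4899 by limma-voom. Depth limits Gbp5 and Gbp4 in ID8 WT, where levels were near 1 CPM or below.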
